A study of Homo sapiens with 9 samples.

Results

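Cell-cycle and E2F target genes were compared between 3 human kidney cell lines. They are 45 genes of the G1/S transition, DNA replication and mitosis, taken by NCBI gene identifier from the 28395 genes of the deposited table of counts, and all 45 were found there. HK2 is a line of proximal tubule cells labelled parental. 786-O is a parental line from a clear cell renal cell carcinoma (ccRCC), and 786-M1A is a metastatic derivative of 786-O obtained from lung after passage in vivo. All 3 lines were untreated and grown stably in Plasmax, a medium modelled on the nutrients of human serum. There were 3 libraries of polyA-selected RNA per line, 9 in all, made from dishes of the same line, so the p-values measure the spread between dishes, which may be technical. Each condition is a single line. As background, HK2 cells were immortalised with the E6 and E7 genes of a papillomavirus, and E7 binds the RB protein; viral transcripts were not analysed here. The comparisons ask how the cancer lines differ from the tubule line, and how the metastatic derivative differs from its parent.

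In a dividing cell, D-type cyclins and then cyclin E with CDK2 phosphorylate the RB protein, which releases E2F transcription factors from repression. E2F factors then drive the genes of origin licensing and DNA synthesis. Later in the cycle, the MuvB complex with MYBL2 and FOXM1 drives the genes of G2 and mitosis through a promoter element called the cell-cycle genes homology region (CHR), often close to a CCAAT box bound by NF-Y. Clear cell carcinoma arises from tubule epithelium that divides little in the adult kidney, whereas cell lines divide in culture.

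The promoters of the genes show these elements. Windows of 300 bases, from 250 before to 50 after a transcript start given by RefSeq (GRCh38.p14), were at hand for 36 of the 45 genes. This start lay 172706 bases inside the gene for *RB1*, so that its window is not the promoter at the gene's 5′ end, and 55378 and 19025 bases inside the outermost GENCODE start for *NUF2* and *KIF11*. They were searched on both strands for an E2F site (TTTCCCGC, TTTCGCGC, TTTGCCGC or TTTGGCGC), for the CHR (TTTGAA or TTCGAA) and for the CCAAT box (CCAAT). *CCNE2*, *CDK2*, *AURKA*, *MCM4*, *MCM5*, *E2F8*, *FOXM1*, *TTK* and *BIRC5* had no entry. A letter match is a description of the window and does not show binding. The 6 stretches below are the 100 bases before that start in S-phase genes and *E2F1*. The first 5 genes were lower in 786-O than in HK2, and all 6 stretches hold an E2F match. *CDC6*, *MCM2* and *MCM3* were lower too, but hold an E2F match only in the wider 300-base window and are not shown. The stretches run 5′ to 3′ on the strand of the gene, and capitals mark matches to any of the 3 elements on either strand.
PCNA, chr20:5126623-5126722, minus strand: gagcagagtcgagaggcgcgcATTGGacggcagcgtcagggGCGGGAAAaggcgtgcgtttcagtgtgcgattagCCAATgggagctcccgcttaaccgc
MCM6, chr2:135876444-135876543, minus strand: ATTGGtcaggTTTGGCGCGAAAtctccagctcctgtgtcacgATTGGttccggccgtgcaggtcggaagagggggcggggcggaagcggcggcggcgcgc
MCM7, chr7:100101398-100101497, minus strand: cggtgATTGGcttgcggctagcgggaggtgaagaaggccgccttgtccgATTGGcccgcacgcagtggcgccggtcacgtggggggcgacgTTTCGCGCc
GINS2, chr16:85688955-85689054, minus strand: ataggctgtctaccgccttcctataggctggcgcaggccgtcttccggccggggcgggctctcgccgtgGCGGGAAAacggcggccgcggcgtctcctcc
CDT1, chr16:88803689-88803788, plus strand: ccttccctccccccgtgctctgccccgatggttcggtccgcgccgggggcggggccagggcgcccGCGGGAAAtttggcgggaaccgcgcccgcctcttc
E2F1, chr20:33686386-33686485, minus strand: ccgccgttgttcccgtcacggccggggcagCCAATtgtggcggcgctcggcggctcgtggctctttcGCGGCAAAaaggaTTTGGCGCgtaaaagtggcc

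*MCM6* holds 2 E2F matches that overlap on opposite strands. Other mitotic genes higher in both cancer lines than in HK2, such as *BUB1*, *NUF2*, *NDC80*, *CENPE* and *KIF20A*, hold no CHR in this stretch and are not shown. The next 6 stretches are those of mitotic genes that were higher in both cancer lines and hold a CHR there. Their capitals mark the CHR and the CCAAT box, and in *MKI67* one CHR overlaps a CCAAT box.
PLK1, chr16:23678789-23678888, plus strand: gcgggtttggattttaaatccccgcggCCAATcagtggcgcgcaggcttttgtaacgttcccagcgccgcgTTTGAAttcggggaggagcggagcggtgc
CCNB2, chr15:59105046-59105145, plus strand: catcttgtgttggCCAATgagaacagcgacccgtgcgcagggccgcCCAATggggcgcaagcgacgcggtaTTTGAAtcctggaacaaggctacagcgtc
CDC20, chr1:43358881-43358980, plus strand: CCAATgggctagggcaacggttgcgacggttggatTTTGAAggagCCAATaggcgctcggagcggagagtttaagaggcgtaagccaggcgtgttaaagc
BUB1B, chr15:40160969-40161068, plus strand: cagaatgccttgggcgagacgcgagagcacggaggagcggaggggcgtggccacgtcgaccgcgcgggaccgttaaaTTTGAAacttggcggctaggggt
KIF11, chr10:92593030-92593129, plus strand: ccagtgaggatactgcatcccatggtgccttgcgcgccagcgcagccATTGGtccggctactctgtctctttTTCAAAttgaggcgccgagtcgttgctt
MKI67, chr10:128126424-128126523, minus strand: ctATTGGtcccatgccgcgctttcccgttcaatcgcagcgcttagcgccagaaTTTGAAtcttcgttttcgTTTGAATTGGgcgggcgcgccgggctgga

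An E2F site was found in 13 of the 36 promoters (36.1%), against 5.41% of the 10191 promoters of genes tested and 3.33% of all 27305 promoters. The CHR was found in 14 (38.9%), against 11.1% of the genes tested and 16.6% of all promoters. A CCAAT box was found in 23 (63.9%), against 36.7% of the genes tested and 35.7% of all promoters. The elements differed by role, though not cleanly. Among cyclins, kinases and phosphatases, 2 of 10 promoters held an E2F site and 3 a CHR. In transcriptional control, 3 of 5 held an E2F site and 0 a CHR. *CDK1* and *MCM6* held both elements. Among the genes of origin licensing and replication, 8 of 9 promoters held an E2F site and 1 held a CHR. Among kinetochore and spindle checkpoint genes, 7 of 8 held a CHR and 0 an E2F site, and among mitotic motors and chromosome proteins these numbers were 3 and 0 of 4. All 4 promoters of the motors and chromosome proteins held a CCAAT box. Without the windows of *RB1*, *NUF2* and *KIF11*, an alternative chosen after seeing the data, 13 of 33 promoters held an E2F site and 12 a CHR.

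**Figure D1:**
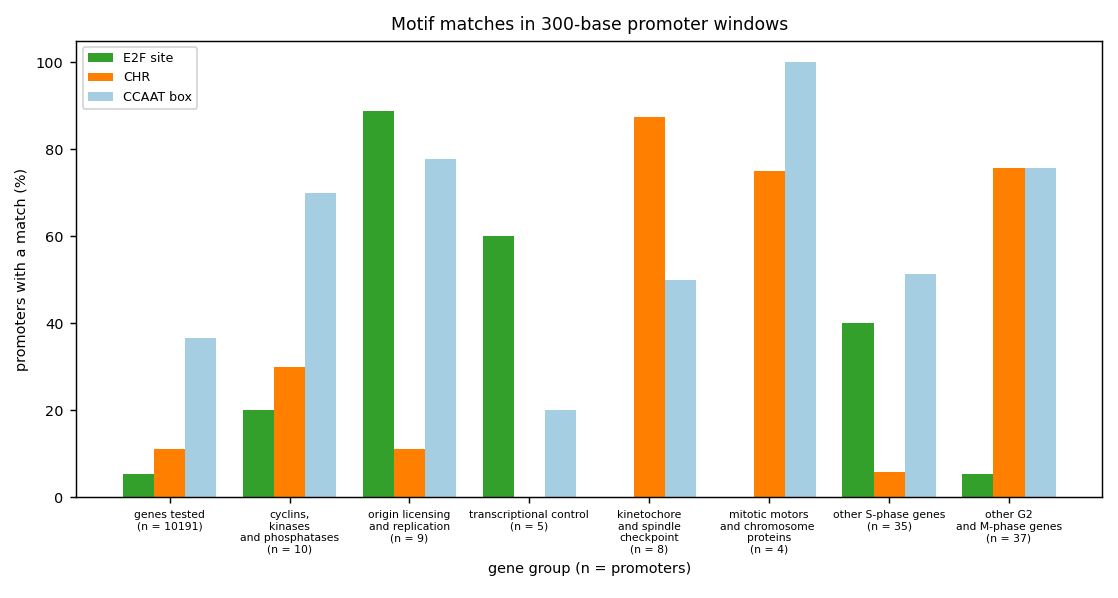
Share of promoters (y axis, %) with a match to the E2F site, the CHR or the CCAAT box in the 300-base window, for all genes tested, for the 5 roles and for the 2 lists of other cell-cycle genes (x axis, n is the number of promoters). E2F matches stand out in origin licensing and replication (8 of 9 promoters) and CHR matches in the kinetochore genes (7 of 8) and the other G2 and M-phase genes (28 of 37).

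Between 30212291 and 45362428 reads were counted on genes per library. Levels are given as CPM, the usual count normalized to library size, with edgeR's TMM factors, which lay between 0.964 and 1.03. A count of 3 corresponds to between 0.0647 and 0.0961 CPM. The quasi-likelihood test of edgeR was fitted once to all 9 libraries, for the 12695 genes whose mean count reached 50. A gene is called where its Benjamini-Hochberg adjusted p is under 0.05. All 45 genes passed the filter on low counts, and their lowest count in any library was 217, for *E2F2*. For 3 libraries against 3, the smallest p-value of an exact two-sided permutation test is 0.1. The kidney transcription factor *PAX8* was at mean levels of 167 CPM (HK2), 164 CPM (786-O) and 183 CPM (786-M1A). The proximal tubule markers *LRP2*, *SLC22A6* and *SLC22A8* were at no more than 3 counts in every library, and so was *CA9*, a marker of clear cell carcinoma. The other clear cell markers measured were higher in the cancer lines, *VEGFA* with means of 19.3, 162 and 331 CPM and *EGLN3* with means of 1.72, 49.9 and 128 CPM (HK2, 786-O, 786-M1A). Of 10 markers of blood cells, endothelium and fibroblasts, *PTPRC*, *CD3E*, *HBB*, *PECAM1*, *CDH5* and *VWF* were at no more than 3 counts in every library. The remaining blood marker, *CD68*, was present in all lines, with means of 50.8, 26.9 and 36.1 CPM (HK2, 786-O, 786-M1A). The fibroblast markers, nearly all *COL1A1*, summed to 49.7 to 58.2 CPM in HK2 libraries, to 264 to 332 CPM in those of 786-O and to 15.5 to 18.0 CPM in those of 786-M1A.

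The genes did not move one way between the lines. In 786-O against HK2, 42 of the 45 were called, 21 higher and 21 lower, against 84.2% of all genes tested (41.7% higher and 42.5% lower). The median log2 fold change was 0.02, and that of all genes tested was -0.01. In 786-M1A against HK2, 37 were called, 25 higher and 12 lower, against 85.0% of all genes tested (42.0% higher and 42.9% lower), with a median of 0.15 against -0.01. In 786-M1A against 786-O, 29 were called, 22 higher and 7 lower, against 56.2% of all genes tested (29.0% higher and 27.1% lower), with a median of 0.09 against 0.01. The 3 comparisons share libraries. In bulk RNA, fewer cells in a phase of the cycle and less RNA per cell cannot be told apart, and no growth rate or phase distribution was analysed here.

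The differences were mostly small. Differences of at least 2-fold were called for 3 genes higher and 0 lower in 786-O against HK2, where 22.3% of all genes tested passed this limit (9.18% higher and 13.1% lower). In 786-M1A against HK2 they were called for 6 higher and 1 lower, against 25.4% of all genes (10.5% higher and 14.9% lower). Between the cancer lines there were 0 in either direction, against 6.55% (2.03% higher and 4.52% lower in 786-M1A). The libraries of 2 lines did not overlap for 41, 37 and 32 of the 45 genes in the 3 comparisons, against 85.5%, 85.0% and 61.7% of all genes tested. The log2 fold changes lay between -0.99 and 1.44 in the first comparison, between -1.03 and 1.28 in the second and between -0.39 and 0.59 in the third. The spread between dishes was small as well. For the 45 genes the median coefficient of variation was 3.36% (HK2), 2.61% (786-O) and 3.09% (786-M1A), and for 8758 genes in the same range of CPM it was 3.59%, 3.09% and 3.84%. *MKI67* varied most in HK2 (11.2%) and in 786-O (10.1%), and *CENPF* in 786-M1A (8.80%).

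By direction, 20 genes were called higher than HK2 in both cancer lines and 12 lower in both. By mean level, 18 genes were highest in 786-M1A and lowest in HK2, 11 were highest in HK2 and lowest in 786-O, and 5 were highest in HK2 and lowest in 786-M1A. A further 5 were highest in 786-M1A and lowest in 786-O, 5 were highest in 786-O and lowest in HK2, and *ORC1*, a subunit of the origin recognition complex, was the only one called in no comparison. The E2F site was in 7 of the 10 promoters at hand of the genes lower in both lines, and in 2 of the 16 of the genes higher in both. The CHR was in 1 of those 10 and in 9 of those 16. Without the windows of *RB1*, *NUF2* and *KIF11*, the 16 became 13, of which 2 held an E2F site and 7 a CHR. These groups were formed on the measured differences, and the shares are a description.

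**Figure D2:**
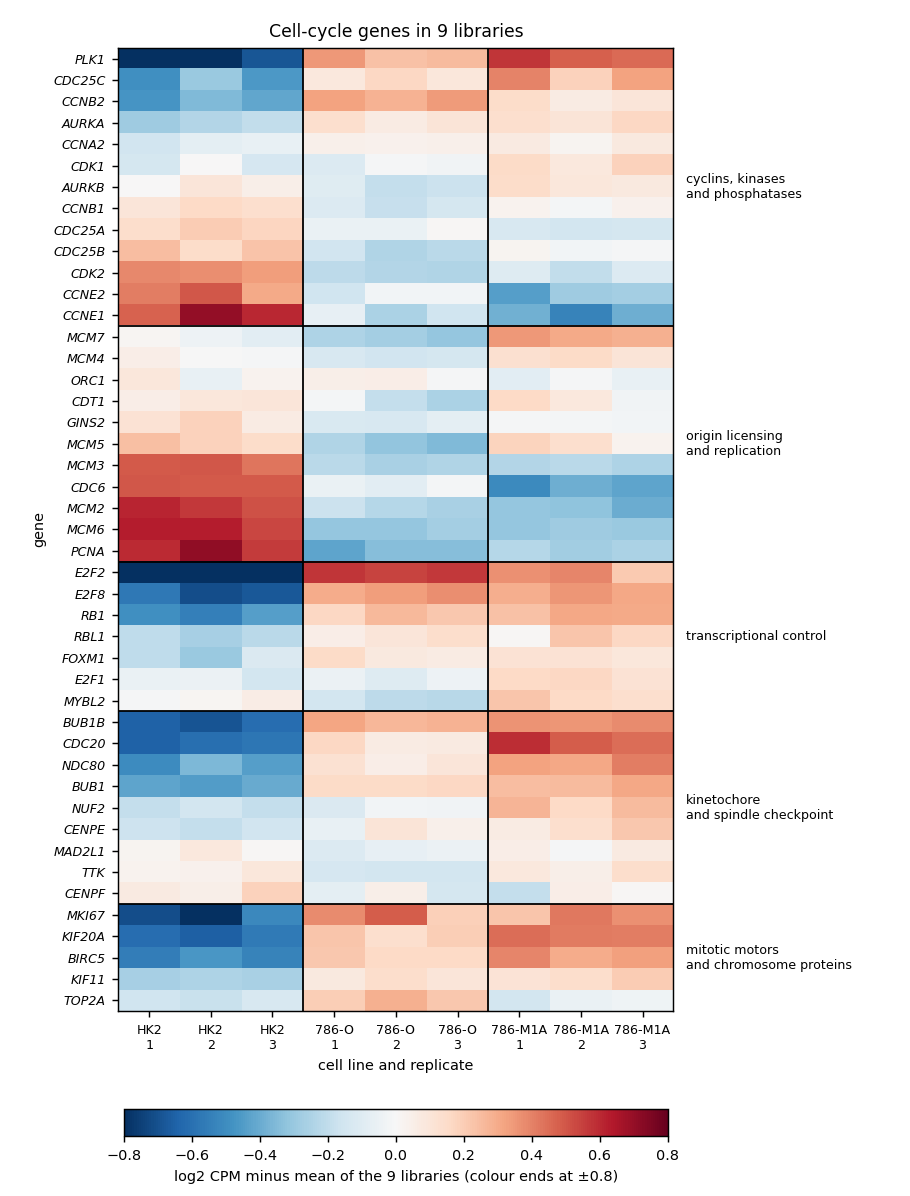
Heat map of the 45 genes (rows, grouped by role) in the 9 libraries (columns). The colour is the log2 CPM of a library minus the mean of the 9 libraries, cut at ±0.8. The HK2 columns are red for *PCNA*, *MCM6*, *MCM2* and *CDC6* and blue for *PLK1*, *E2F2*, *BUB1B* and *KIF20A*, and the 3 libraries of a line look alike.

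Genes of origin licensing and replication were lower in 786-O. Of 11, 10 were called lower than in HK2 and 0 higher, with a median log2 fold change of -0.50. In 786-M1A, 6 were lower and 2 higher than in HK2 (median -0.14), and against 786-O, 5 were higher and 2 lower (median 0.09). *PCNA*, the sliding clamp of the replicative DNA polymerases (chr20:5114953-5126626), was at 301, 325 and 293 CPM in HK2, at 148, 157 and 157 in 786-O and at 169, 164 and 167 in 786-M1A. The HK2 libraries lay far above both cancer lines, which lay close to each other. *PCNA* fell by 0.99 on the log2 scale in 786-O (SE 0.041, adjusted p = 2.18e-15) and by 0.88 in 786-M1A (SE 0.041, adjusted p = 1.55e-14). The pseudogene *PCNAP1* held at most 1 count in any library.

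*CDC6*, which loads the MCM helicase onto origins, declined in steps. Its libraries read 117, 117 and 117 CPM in HK2, then 80.3, 78.6 and 82.5 in 786-O and 58.5, 63.6 and 62.1 in 786-M1A. No library of a line overlapped those of another. It was lower in 786-O by 1.45-fold and in 786-M1A by 1.91-fold than in HK2, and lower in 786-M1A than in 786-O by 1.31-fold (adjusted p = 6.27e-08). That last step was -0.39 on the log2 scale, and the median of the genes tested on its chromosome, 17, was -0.18. The part of the chromosome was not tested.

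The 6 subunits of the MCM2-7 helicase, which unwinds DNA at the fork, fell into 2 patterns. *MCM2*, *MCM3* and *MCM6* were lower than in HK2 in both cancer lines by similar amounts. Their log2 fold changes were -0.78, -0.71 and -0.89 in 786-O and -0.91, -0.70 and -0.89 in 786-M1A. Of these, *MCM2* was called lower in 786-M1A than in 786-O (-0.13, adjusted p = 0.00956). *MCM4*, *MCM5* and *MCM7* were lower than in HK2 in 786-O too (log2 fold changes of -0.15, -0.50 and -0.24), but exceeded 786-O in 786-M1A by 0.27, 0.42 and 0.59 on the log2 scale. *MCM7* (chr7:100092233-100101940) was at 459, 441 and 428 CPM in HK2, at 382, 376 and 366 in 786-O and at 577, 559 and 551 in 786-M1A. The lines did not overlap, with 786-M1A highest. *MCM7* had the largest log2 fold change of the 45 genes between the cancer lines (SE 0.036, adjusted p = 1.14e-11).

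*MCM4* and *MCM7* were also higher in 786-M1A than in HK2, by 0.11 (adjusted p = 0.00361) and 0.35 (adjusted p = 9.82e-09), whereas *MCM5* was not called there (log2 fold change -0.08, adjusted p = 0.0974). The call of *MCM4* against HK2 in 786-M1A was lost with upper-quartile scaling (0.06, adjusted p = 0.134) and with limma on quantile-normalized log2 counts (0.01, adjusted p = 0.827). The median log2 fold change of the 637 genes tested on chromosome 7 was 0.31 in 786-M1A against HK2 and 0.13 against 786-O. That of the 310 on chromosome 22, which carries *MCM5*, was 0.23 and 0.27. Against HK2, that on chromosome 6, which carries *MCM3*, was -0.40 in both cancer lines. Those on chromosomes 3 (*MCM2*) and 2 (*MCM6*) lay between -0.01 and 0.02. The part of the chromosome in these results was not tested. Per kb of exon, *MCM7* was the most and *MCM5* the least abundant of the 6 in every line, and their ratio was 3.05 (HK2), 3.65 (786-O) and 4.10 (786-M1A).

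The other licensing genes differed less. *CDT1*, the partner of *CDC6* in MCM loading, was lower in 786-O than in HK2 (log2 fold change -0.23, adjusted p = 0.000985) and higher in 786-M1A than in 786-O (0.22, adjusted p = 0.00282). *GINS2*, a subunit of the GINS complex of the active helicase, had log2 fold changes of -0.23 in 786-O and -0.14 in 786-M1A, both called. Its exons overlap those of *GSE1*, which held between 45.6% and 121% of the counts of *GINS2* and was higher in both cancer lines, and whether counting used the strand is not stated.

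**Figure D3:**
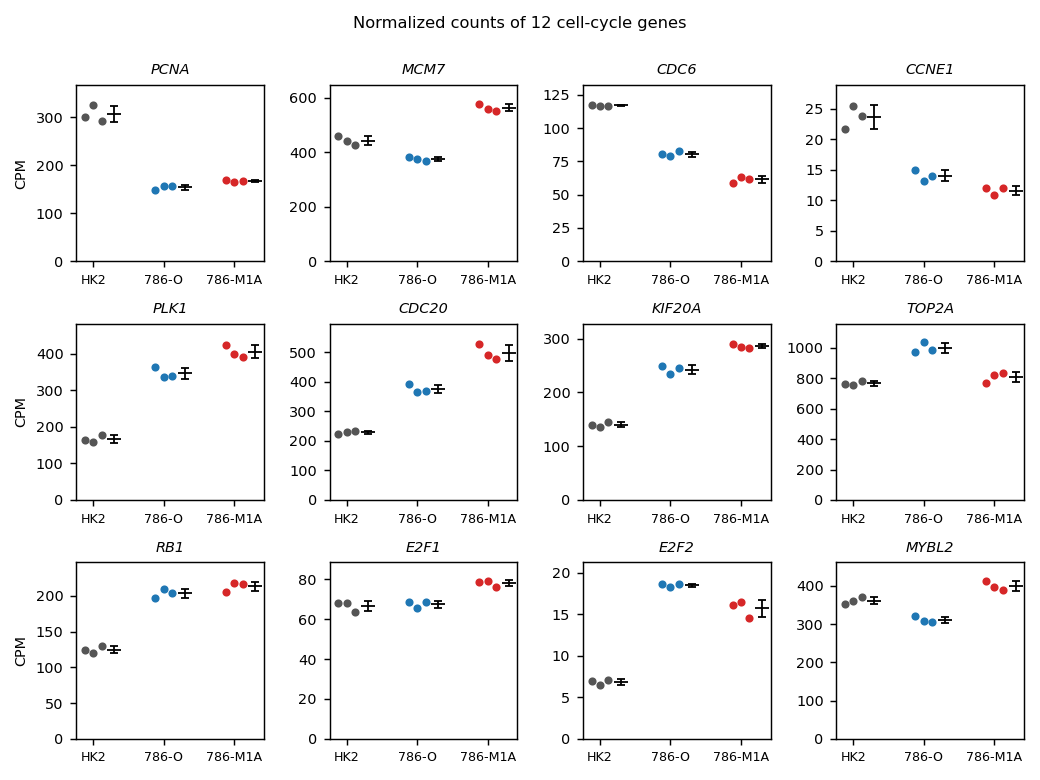
Normalized counts (y axis, CPM, from 0) of 12 of the genes in each line (x axis). Points are the 3 libraries, and the bars beside them are the mean ± SD (n = 3). *PCNA*, *CDC6* and *CCNE1* are highest in HK2, *PLK1*, *CDC20*, *KIF20A* and *RB1* lowest in HK2, and *MCM7* and *MYBL2* lowest in 786-O.

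Cyclins, their kinases and the phosphatases and mitotic kinases moved in both directions. Of 13 genes, 5 were called higher and 7 lower in 786-O than in HK2, and 6 and 6 in 786-M1A. The G1/S members *CCNE1*, *CCNE2*, *CDK2* and *CDC25A* were lower in both cancer lines. *CCNE1*, one of the E cyclins that activate CDK2, was at 21.7, 25.5 and 23.7 CPM in HK2, at 15, 13.2 and 14 in 786-O and at 12, 10.8 and 11.9 in 786-M1A. The lines did not overlap and HK2 was highest. Its log2 fold change was -0.75 in 786-O (SE 0.067, adjusted p = 1.23e-09) and -1.03 in 786-M1A (SE 0.070, adjusted p = 1.03e-11), and 786-M1A was lower than 786-O by 1.22-fold (adjusted p = 0.00281). *CCNE2* followed the same order, with means of 54.0 ± 3.6, 38.9 ± 2.1 and 32.4 ± 2.1 CPM (SD, n = 3). Its exons overlap those of *INTS8* on the opposite strand, which held between 123% and 331% of its counts and was higher in both cancer lines. *CDK2* was at 109 ± 1.9, 72.5 ± 0.95 and 77.3 ± 2.7 CPM (SD, n = 3), and the cancer lines were not called apart (adjusted p = 0.0516). Its log2 fold changes against HK2 were -0.59 in 786-O and -0.50 in 786-M1A. The medians of the genes tested on its chromosome, 12, were -0.37 and -0.31. The part of the chromosome was not tested.

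*PLK1*, a kinase of mitotic entry and spindle assembly, had the largest difference of this role in the other direction. It was at 164, 159 and 178 CPM in HK2, at 363, 336 and 340 in 786-O and at 425, 399 and 391 in 786-M1A. The 3 groups of libraries did not overlap, with HK2 lowest and 786-M1A highest. The log2 fold changes against HK2 were 1.05 (SE 0.045, adjusted p = 8.76e-15) and 1.28 (SE 0.046, adjusted p = 2.97e-16), and 786-M1A was 1.17-fold higher than 786-O (adjusted p = 0.000219).

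The partners of CDK1 did not move together. *CCNB2* was higher than HK2 in both lines, with means of 92.2 ± 3.7 CPM in HK2, then 153 ± 3.3 in 786-O and 132 ± 3.8 in 786-M1A (SD, n = 3). *CCNB1* was lower in both, at 283 ± 6.5, 234 ± 6.1 and 261 ± 5.1 CPM. Both encode B cyclins of mitotic entry, and 786-M1A was lower than 786-O in *CCNB2* (log2 fold change -0.21) and higher in *CCNB1* (0.16). The median log2 fold change of the 415 genes tested on chromosome 15, which carries *CCNB2* and *BUB1B*, was -0.31 there. It was 0.49 in 786-O and 0.20 in 786-M1A against HK2. For chromosome 5, which carries *CCNB1*, these medians were 0.00, 0.25 and 0.22. The part of the chromosome was not tested. *CDK1* itself was called higher in 786-M1A than in HK2 and 786-O (log2 fold changes of 0.23 and 0.19) and was not called between 786-O and HK2 (0.04, adjusted p = 0.366). *CCNA2*, the S and G2 cyclin, was 0.13 and 0.15 higher on the log2 scale in the cancer lines, calls that limma on quantile-normalized log2 counts did not make (adjusted p = 0.148 and 0.160).

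The CDC25 phosphatases, which remove inhibitory phosphates from CDKs, also split. *CDC25A* and *CDC25B* were lower than HK2 in both lines, with log2 fold changes of -0.21 and -0.41 in 786-O and -0.31 and -0.21 in 786-M1A. *CDC25C* was higher, by 0.52 and 0.71 on the log2 scale. Its exons overlap those of *FAM53C*, which held between 123% and 251% of its counts and was not called in any comparison. Exons of *CCNA2* (with *EXOSC9*), *FOXM1* (with *ITFG2*) and *KIF20A* (with *BRD8* and *CDC23*) overlap as well. *EXOSC9* and *ITFG2* were lower in both cancer lines. *CDC23*, with 31.0% to 57.3% of the counts of *KIF20A*, was higher in both, like *KIF20A* (log2 fold changes of 0.33 and 0.24). *BRD8* was not called in any comparison.

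The aurora kinases differed as well. *AURKA*, the kinase of centrosomes and spindle poles, was higher by 0.34 and 0.37 on the log2 scale in the cancer lines, and its pseudogene *AURKAP1*, with 7.01% to 7.99% of its counts, had log2 fold changes of 0.32 and 0.36. *AURKB*, the kinase of the chromosomal passenger complex, was at 92.3, 98.4 and 95 CPM in HK2, at 86, 80.6 and 81.7 in 786-O and at 102, 98 and 97.1 in 786-M1A. The 786-O libraries were below all others, and HK2 and 786-M1A overlapped. *AURKB* was lower in 786-O than in HK2 by 1.15-fold (adjusted p = 0.00012) and 1.20-fold higher in 786-M1A than in 786-O (adjusted p = 1.76e-05).

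Most genes of transcriptional control were higher in the cancer lines. Of 7, 5 were called higher and 1 lower in 786-O than in HK2 (median log2 fold change 0.32), and 7 of 7 were higher in 786-M1A (median 0.36). *E2F2*, an activator E2F, had the largest difference of the 45 genes in 786-O and the lowest level per kb of exon in every line. It was at 6.95, 6.44 and 7.07 CPM in HK2, at 18.6, 18.2 and 18.6 in 786-O and at 16.1, 16.4 and 14.5 in 786-M1A. Both cancer lines were well above HK2, and 786-O was above 786-M1A in every library. It was higher by 2.71-fold (log2 SE 0.069, adjusted p = 2.69e-14) and by 2.30-fold (SE 0.071, adjusted p = 8.80e-13). *E2F1*, the other activator among the 45, was at 68.2, 68.2 and 63.8 CPM in HK2, at 68.4, 65.6 and 68.5 in 786-O and at 79.0, 79.1 and 76.4 in 786-M1A. Only the 786-M1A libraries stood apart, by 1.17-fold over HK2 (adjusted p = 3.14e-05) and by 1.16-fold over 786-O (adjusted p = 0.000194).

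*E2F8*, an atypical E2F that represses E2F targets late in S phase, was at 19.9 ± 0.99, 39.4 ± 1.0 and 38.9 ± 0.83 CPM (SD, n = 3), and was not called between the cancer lines. The pocket proteins were higher in the cancer lines. *RB1* (chr13:48303744-48599436) was at 125, 120 and 129 CPM in HK2, at 197, 210 and 204 in 786-O and at 206, 218 and 216 in 786-M1A. The HK2 libraries were the lowest and the cancer lines overlapped. *RB1* was 1.63-fold and 1.71-fold higher than in HK2 (adjusted p = 4.41e-13 and 7.96e-14), and the median log2 fold change of the 216 genes tested on chromosome 13 was 0.23 and 0.17. *RBL1*, which encodes the pocket protein p107, was higher by 0.32 and 0.36 on the log2 scale.

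*FOXM1* and *MYBL2* encode the transcription factors of the G2 and mitotic genes. *FOXM1* was at 229, 215 and 244 CPM in HK2, at 294, 279 and 276 in 786-O and at 286, 286 and 282 in 786-M1A. HK2 was lowest and the cancer lines overlapped, with log2 fold changes of 0.30 and 0.31 against HK2 (adjusted p = 8.76e-07 and 5.95e-07). *MYBL2* was at 353, 359 and 371 CPM in HK2, at 320, 308 and 305 in 786-O and at 414, 396 and 390 in 786-M1A. It was lowest in 786-O and highest in 786-M1A without overlap, and was lower in 786-O than in HK2 by 1.16-fold (adjusted p = 1.25e-05) and 1.29-fold higher in 786-M1A than in 786-O (adjusted p = 2.83e-08). Its 1.11-fold higher level in 786-M1A than in HK2 (adjusted p = 0.000794) was not called by limma on quantile-normalized log2 counts (log2 fold change 0.03, adjusted p = 0.351).

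**Figure D4:**
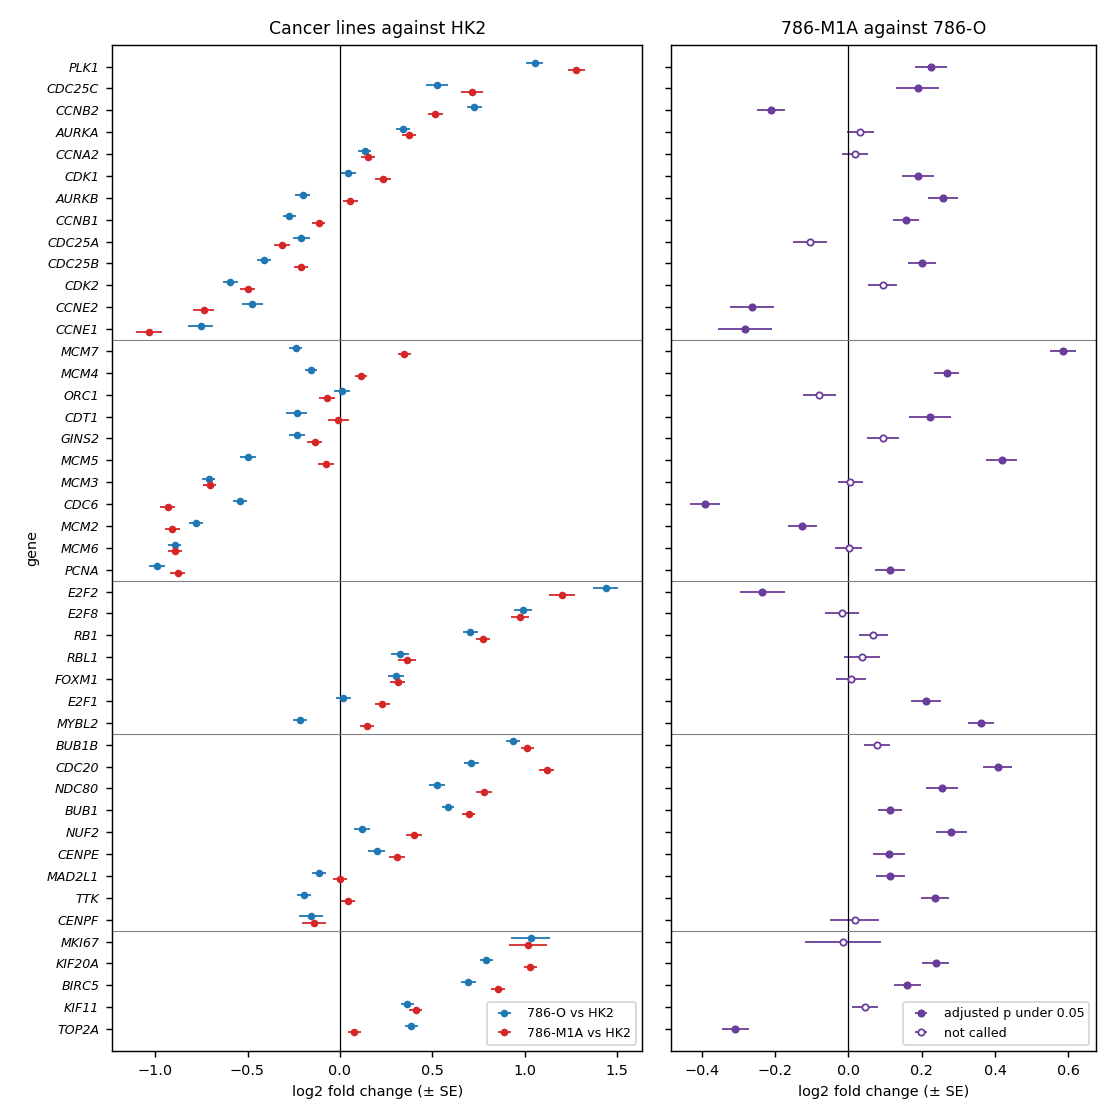
Log2 fold change ± SE of the 45 genes (rows, grouped by role as in the heat map), at the left in 786-O (blue) and 786-M1A (red) against HK2 and at the right in 786-M1A against 786-O, where open points are not called. At the left, values run from *CCNE1* and *PCNA* near -1 to *PLK1* and *E2F2* above 1, and at the right they stay between -0.39 and 0.59.

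Kinetochore and spindle checkpoint genes were mostly higher in the cancer lines and higher again in 786-M1A. Of 9, 6 were called higher and 3 lower in 786-O than in HK2 (median log2 fold change 0.20), 6 were higher and 0 lower in 786-M1A (median 0.40), and 7 were higher and 0 lower in 786-M1A than in 786-O (median 0.11). Of these 7, limma on quantile-normalized log2 counts did not call *BUB1* (adjusted p = 0.163), *MAD2L1* (0.101) and *CENPE* (0.112). *CDC20*, the activator of the anaphase-promoting complex (chr1:43358981-43363203), was at 224, 230 and 235 CPM in HK2, at 392, 367 and 368 in 786-O and at 528, 490 and 478 in 786-M1A. The lines did not overlap. *CDC20* was 1.64-fold higher than HK2 in 786-O (adjusted p = 6.69e-13), 2.17-fold higher in 786-M1A (adjusted p = 2.27e-16) and 1.33-fold higher in 786-M1A than in 786-O (adjusted p = 2.57e-08). Per kb of exon it was the most abundant of the 45 genes in 786-O (187 RPKM) and 786-M1A (248 RPKM), whereas *PCNA* was the most abundant in HK2 (218 RPKM).

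*BUB1B*, which encodes the checkpoint protein BUBR1, was at 96.1, 93.3 and 98.8 CPM in HK2, at 187, 181 and 183 in 786-O and at 193, 193 and 196 in 786-M1A. It was about as high in both cancer lines, 1.91-fold (adjusted p = 7.25e-16) and 2.02-fold (adjusted p = 1.63e-16) above HK2, and the 1.06-fold difference between them was not called (adjusted p = 0.0690), although the libraries of the 2 lines did not overlap. The checkpoint kinase gene *BUB1* was higher by 0.58 and 0.70 on the log2 scale. *NDC80* and *NUF2*, subunits of one microtubule-binding complex of the kinetochore, were higher by 0.53 and 0.12 in 786-O and by 0.78 and 0.40 in 786-M1A.

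Not all checkpoint genes followed. *TTK*, the checkpoint kinase MPS1, was at 108, 108 and 113 CPM in HK2, at 96.2, 95.3 and 95.6 in 786-O and at 112, 109 and 117 in 786-M1A. Only 786-O stood apart, lower than HK2 by 1.14-fold (adjusted p = 8.68e-05), and 786-M1A was 1.18-fold higher than 786-O (adjusted p = 2.25e-05). *MAD2L1*, the checkpoint protein MAD2, had a similar order with smaller differences (log2 fold change -0.11 in 786-O, adjusted p = 0.0113). In 786-O against HK2, the median log2 fold change was -0.40 on chromosome 6, which carries *TTK* (-0.20). It was -0.31 on chromosome 4, which carries *MAD2L1*. The part of the chromosome was not tested. *CENPE*, a kinetochore motor, was higher in both cancer lines by 0.20 and 0.31. The call of *CENPF*, a large kinetochore protein, in 786-O (-0.16, adjusted p = 0.0436) was lost when any of 5 of the 6 libraries was left out.

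Mitotic motors and chromosome proteins had the highest medians of the 5 roles against HK2. All 5 genes were called higher in 786-O than in HK2 (median log2 fold change 0.70) and 4 of 5 in 786-M1A (median 0.86). *MKI67*, the proliferation marker Ki-67, which coats mitotic chromosomes, was at 214, 196 and 244 CPM in HK2, at 453, 488 and 398 in 786-O and at 407, 468 and 450 in 786-M1A. Both cancer lines lay above HK2 and overlapped each other, with 2.05-fold (SE of the log2 value 0.105, adjusted p = 2.61e-05) and 2.02-fold (SE 0.105, adjusted p = 2.79e-05) higher levels than HK2. *KIF20A*, a kinesin of cytokinesis, was at 140, 136 and 144 CPM in HK2, at 249, 234 and 245 in 786-O and at 290, 285 and 283 in 786-M1A. It rose without overlap from HK2 to 786-O (1.73-fold, adjusted p = 1.91e-14) and from 786-O to 786-M1A (1.18-fold, adjusted p = 1.09e-05).

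*BIRC5*, which encodes survivin of the chromosomal passenger complex, was at 155 ± 5.2, 252 ± 5.7 and 281 ± 9.4 CPM (SD, n = 3), and *KIF11*, the kinesin that separates spindle poles, at 193 ± 0.88, 248 ± 5.8 and 256 ± 8.5. *TOP2A*, the topoisomerase that disentangles sister chromatids, behaved otherwise. It was at 762, 754 and 781 CPM in HK2, at 976, 1039 and 988 in 786-O and at 770, 823 and 832 in 786-M1A. Only 786-O stood apart, 1.31-fold above HK2 (adjusted p = 2.83e-09), and 786-M1A was lower than 786-O by 1.24-fold (adjusted p = 3.36e-07) and was not called against HK2 (log2 fold change 0.08, adjusted p = 0.0531). Between the cancer lines, *TOP2A* had a log2 fold change of -0.31, and the median of the 753 genes tested on its chromosome, 17, was -0.18. Against HK2 that median was 0.08 in 786-O and -0.16 in 786-M1A. The part of the chromosome was not tested.

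Some regulators upstream of these genes differed by more. Beside the counts of this and the following lists stand the shares of all genes tested that were called. These were 84.2% in 786-O against HK2, 85.0% in 786-M1A against HK2 and 56.2% between the cancer lines. Of 5 D cyclins and their kinases, 2 were called higher and 3 lower in 786-O than in HK2, and 1 and 3 in 786-M1A. The 1 became 2 without HK2 replicate 3 and without 786-M1A replicate 1. *CCND1* was at 96.4, 95.8 and 104 CPM in HK2, at 372, 395 and 397 in 786-O and at 456, 513 and 506 in 786-M1A. It was 3.92-fold and 4.97-fold above HK2 (adjusted p = 1.77e-18 and 1.38e-19) and 1.27-fold higher in 786-M1A than in 786-O (adjusted p = 2.64e-06). *CCND2* held between 506 and 835 counts in the HK2 libraries and 0 in every library of the cancer lines, which makes it at least 204-fold lower in 786-O and 194-fold lower in 786-M1A, taking 3 counts per library as the floor. *CDK6*, a kinase of the D cyclins, was lower in 786-M1A than in 786-O (log2 fold change -0.19, adjusted p = 0.0142), the only lower call of this list between the cancer lines, which was lost without 786-O replicate 2 and without 786-M1A replicate 1.

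Of 7 INK4 and CIP inhibitors, 4 were called higher and 3 lower in 786-O than in HK2, and 3 and 3 in 786-M1A. Of all genes tested, 84.2% and 85.0% were called there. *CDKN2A*, which encodes the CDK4 and CDK6 inhibitor p16, held between 5228 and 8654 counts in HK2 and 0 in every library of the cancer lines, at least 2109-fold and 2007-fold lower. *CDKN1C* held 1794 to 2596 counts in HK2 libraries, 10 to 20 in those of 786-O and 0 to 2 in those of 786-M1A. *CDKN2C*, which encodes the inhibitor p18, was 4.01-fold higher in 786-O than in HK2, *CDKN2D*, which encodes p19, was 3.70-fold higher in 786-M1A, and *CDKN1A*, which encodes p21, was 1.22-fold higher in 786-M1A than in 786-O (adjusted p = 5.69e-06).

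Among 14 other E2F, DP, pocket and MuvB factors, 5 were called higher and 8 lower in 786-O than in HK2, 5 and 7 in 786-M1A, and 3 and 5 in 786-M1A against 786-O. Without 786-O replicate 3, the 5 lower calls became 3. The MuvB subunit gene *LIN52* was the lowest, with log2 fold changes of -1.22 in 786-O and -1.39 in 786-M1A. *LIN37*, another MuvB subunit, was the highest in 786-O (0.57), and the atypical *E2F7* in 786-M1A (0.75). Between the cancer lines, *E2F4*, a repressor E2F, was higher in 786-M1A by 0.29 and *LIN9*, of MuvB, lower (-0.28).

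Lists of other S-phase and other G2 and M-phase genes gave the context of the roles above. Of 39 S-phase genes, 12 were called higher and 21 lower in 786-O than in HK2 (median log2 fold change -0.16), 14 and 19 in 786-M1A (median -0.03), and 14 and 3 in 786-M1A against 786-O (median 0.07). The 3 became 5 with upper-quartile scaling and 7 with limma on quantile-normalized log2 counts. *UNG*, a uracil-DNA glycosylase, was the lowest in both lines (-1.66 and -1.64). *RRM2*, a subunit of ribonucleotide reductase, was the highest in 786-O (0.88). *HELLS*, a chromatin remodeller, was the lowest in 786-M1A against 786-O (-0.26).

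Of 42 G2 and M-phase genes, 31 were called higher and 4 lower in 786-O than in HK2 (median log2 fold change 0.31), 38 and 3 in 786-M1A (median 0.45), and 31 and 5 in 786-M1A against 786-O (median 0.18), where limma on quantile-normalized log2 counts called 8 lower. *SPC24*, a subunit of the NDC80 complex, was the highest in both lines against HK2 (1.27 and 1.58). The spindle protein gene *DLGAP5* was the lowest in 786-O (-0.43) and *ESPL1*, which encodes separase, in 786-M1A (-0.28). In 786-M1A against 786-O, *FBXO5*, an inhibitor of the anaphase-promoting complex, was the highest (0.37) and *KIF23*, a kinesin of cytokinesis, the lowest (-0.64). The promoters of these lists held an E2F site in 14 of 35 S-phase and 2 of 37 G2 and M-phase promoters, and a CHR in 2 and 28 of them.

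**Figure D5:**
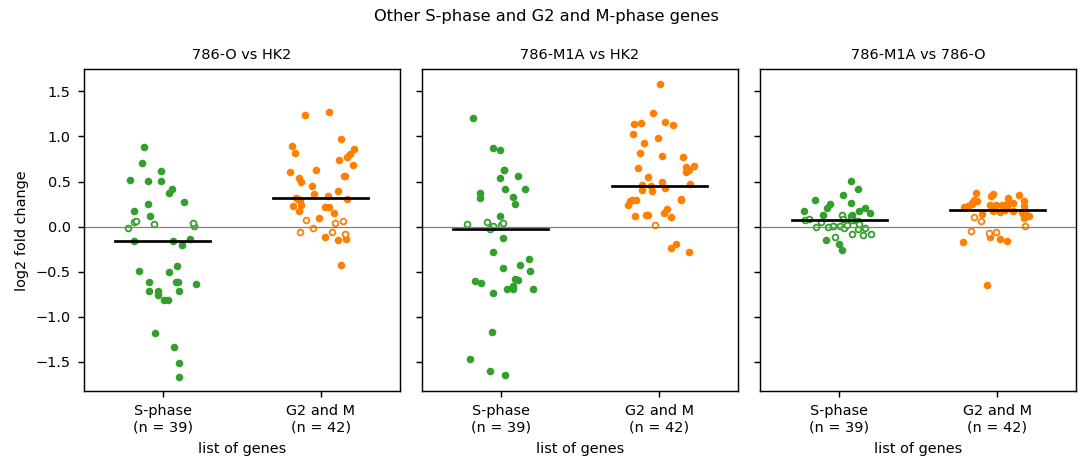
Log2 fold change (y axis) of 39 other S-phase genes and 42 other G2 and M-phase genes in the 3 comparisons. Filled points are called, open points are not, and the line is the median of the list. The S-phase medians are -0.16, -0.03 and 0.07 and the G2 and M-phase medians 0.31, 0.45 and 0.18.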

How the data were processed

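RNA was sequenced in HK2, 786-O and 786-M1A cells, 3 libraries each, grouped by their labels. The authors prepared stranded mRNA libraries and counted reads on genes with featureCounts on GRCh38 (submitters' processing notes). Versions, annotation and strand setting are not given in the sources used here. They deposited raw counts per gene, without normalization or filter.

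Of 28395 gene identifiers, 27745 matched a symbol (RefSeq). Positions and overlaps came from GENCODE gene models on GRCh38. Counts were scaled by TMM and tested with the robust quasi-likelihood test of edgeR 4.0.16 (R 4.3.3) in the 12695 genes whose mean count over 9 libraries reached 50, the filter of the study, with 1 coefficient per line. Benjamini-Hochberg adjustment ran over all of them, with a threshold of 0.05. SE is the log2 fold change divided by the square root of F. RPKM is CPM per kb of exon. Totals were between 30212291 and 45362428 counts, and the floor of 3 counts covers counting error only. The biological coefficient of variation was 3.94%. The test was tested on simulated data.

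Values per library are given for the called member with the largest positive and negative log2 fold change of each role and comparison, and for *RB1*, *E2F1*, *FOXM1*, *MKI67* and *PCNA*. In the lists of other genes the extremes are named, except for a result that is not reported here. Members, roles, lists and motifs were chosen with earlier results of these data known. Alternatives were DESeq2 1.42.0, RLE and upper-quartile scaling, no filter, at least 10 counts in every library, limma-voom and limma 3.58.1 on quantile-normalized log2 counts (with 0 set to 0.5), only the 2 lines compared, a replicate block and leaving out each library. *NDUFA4L2* was not analysed here. Python 3.11.15 was used for other steps.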

Additional observations from a re-analysis of the deposited data

Results flagged for a closer look

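3 genes were lower than HK2 in 786-O and higher than HK2 in 786-M1A, with both differences called, and the difference between the cancer lines was called too. The log2 fold change of 786-M1A against 786-O was 0.27 for *MCM4* (adjusted p = 6.53e-07), 0.59 for *MCM7* (adjusted p = 1.14e-11) and 0.36 for *MYBL2* (adjusted p = 2.83e-08), in edgeR's quasi-likelihood test. Against HK2 in 786-M1A, the call of *MCM4* was lost with upper-quartile scaling (log2 fold change 0.06, adjusted p = 0.134) and with limma on quantile-normalized log2 counts (0.01, adjusted p = 0.827), and that of *MYBL2* with the latter (0.03, adjusted p = 0.351). In each of the 3 genes, all 3 libraries of 786-M1A were above all 3 of HK2, and these above all 3 of 786-O. In 786-M1A against HK2, the log2 fold changes of *MCM4*, *MCM7* and *MYBL2* were 0.11, 0.35 and 0.15. The medians of the genes tested on their chromosomes (8, 7 and 20) were 0.14, 0.31 and -0.22. The part of the chromosome was not tested. *MCM4* and *MCM7* encode subunits of the replicative helicase, and *MYBL2* a transcription factor of G2 and mitotic genes.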

How the results depend on the processing

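Of 2025 values of the 45 genes under the alternatives, 1970 kept their side of the threshold. In 48 of them the sign changed, for 17 genes, with no call in either fit. The median log2 fold change of the 45 genes in 786-O against HK2, 0.02, turned to -0.0236 with upper-quartile scaling and to -0.00404 with limma on quantile-normalized log2 counts, and that in 786-M1A against HK2, 0.15, moved to 0.0518 with the latter. The cause was not tested. Leaving out each library in turn gave 40 to 41 called genes in 786-O against HK2, 37 to 39 in 786-M1A against HK2 and 25 to 29 in 786-M1A against 786-O, with medians from 0.01 to 0.04, from 0.13 to 0.17 and from 0.08 to 0.11.

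Calls changed in 18 of 135 results. In 786-O against HK2, leaving out 1 library ended the call of *CENPF* (every library but 786-O replicate 2; adjusted p from 0.0555 to 0.135), of *NUF2* (without 786-O replicate 2; 0.0557) and of *MAD2L1* (without 786-O replicate 1; 0.0521). In 786-M1A against 786-O, it ended that of *CENPE* (without 786-O replicates 1 or 3, or 786-M1A replicates 2 or 3; 0.0664 to 0.213), *PCNA* (without 786-O replicate 1 or 786-M1A replicates 1 or 3; 0.0516 to 0.117), and *MCM2* and *MAD2L1* (without 786-O replicate 1 or 786-M1A replicate 3; 0.0566 to 0.0773). Calls were gained in 786-M1A against HK2 for *ORC1* without HK2 replicate 2, for *TOP2A* without HK2 replicate 3 or 786-M1A replicate 1, for *MCM5* without 786-M1A replicate 1 and for *CENPF* without 786-M1A replicate 2, and in 786-M1A against 786-O for *CDK2* without 786-M1A replicate 2. Upper-quartile scaling and limma on quantile-normalized log2 counts both ended the call of *NUF2* in 786-O against HK2 (adjusted p = 0.0956 and 0.0997), and upper-quartile scaling those of *CENPE* and *PCNA* in 786-M1A against 786-O (0.0639 and 0.0532). Of the INK4 and CIP inhibitors, 2 were called higher in 786-M1A than in 786-O, and 1 without 786-O replicates 1 or 3 or 786-M1A replicates 1 or 3, with DESeq2 and with limma on quantile-normalized log2 counts.

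A fit with a replicate block called 42, 40 and 30 genes in the 3 comparisons, against 42, 37 and 29. Deviations of same-numbered libraries correlated with r between -0.17 and 0.21. In 786-M1A against 786-O, r was 0.21, 0.07 and 0.11 for same-numbered libraries and between -0.15 and 0.05 for the others. In the comparisons with HK2, r of same-numbered libraries was between -0.17 and 0.04. The labels give only a number, and these values do not show whether same-numbered libraries share a batch. The lowest count of any of the 45 genes was 217, so that depth limits these values little, and the number of dishes limits the precision.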

Other observations

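*MKI67* varied most between dishes in HK2 and 786-O, and *CENPF* in 786-M1A. The 2 genes deviated in the same order of libraries within every line. The deviations of log2 CPM from the mean of the line in replicates 1, 2 and 3 were -0.02, -0.15 and 0.17 for *MKI67* and -0.03, -0.06 and 0.08 for *CENPF* in HK2. In 786-O they were 0.03, 0.13 and -0.16 for *MKI67* and -0.02, 0.11 and -0.08 for *CENPF*, and in 786-M1A -0.12, 0.09 and 0.03 and -0.15, 0.09 and 0.05. Both have long transcripts, and the median deviation of the 2101 genes tested with at least 10 kb of exon was 0.02, -0.04 and 0.02 in HK2, -0.02, 0.02 and -0.01 in 786-O and -0.05, 0.03 and 0.02 in 786-M1A. This was looked at after the values were seen, and its part in the spread of the 2 genes was not tested.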
